A study of Homo sapiens with 6 samples.

Results

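The S100 genes encode small calcium-binding proteins, and several of their products are secreted and bind RAGE, the receptor of advanced glycation end products. The 10 genes described here, S100A2, S100A3, S100A4, S100A5, S100A6, S100A10, S100A11, S100A13, S100A14 and S100A16, were taken by gene name from a table of 58733 named entries. All 10 had reads and all 10 were among the 16081 genes with enough reads to be tested. The names were listed with earlier results of these data known, and the list does not say of each product whether it is a ligand.

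An S100 protein carries a pair of EF-hands, the loops that hold calcium, and most work as dimers that open on binding calcium and then grip a partner protein inside the cell. Some also leave the cell without a signal peptide and act on surface receptors, of which RAGE is the best studied, feeding the NF-kB pathway. In breast cancer cells the family is known best through S100A4, also called metastasin, which binds non-muscle myosin and is linked to motility and metastasis.

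MDA-MB-231 is an established line of mesenchymal, triple-negative human breast cancer cells. Cells received either DMSO, the solvent, or Azeliragon, an inhibitor of RAGE, at 2 µM, and RNA was taken after 72 h. Polyadenylated RNA was sequenced in 3 libraries per condition, lettered a, b and c. By its title the series is about signalling through RAGE and SNAIL, and here the question is how S100 genes stood after the inhibitor was given. The activity of the receptor was not measured in these libraries. Whether the libraries of each condition are of different cultures is not in the labels. P-values below thus describe the spread among 3 libraries a condition, and that spread may be technical.

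Library totals ran from 41455979 to 44313584 counts. Of the genes fixed as marks of the line, VIM, CD44, KRT8 and KRT18 summed to between 3605 and 4249 CPM (counts relative to the library total, scaled by TMM for composition) in DMSO and to between 3663 and 3802 with Azeliragon. PGR had 0 reads and CDH1 had 1 read over all 6 libraries. ESR1, too low to be tested, had 0, 0 and 5 reads in DMSO and 10, 9 and 14 with Azeliragon, and GATA3, listed as absent, had 27.6 ± 2.10 CPM in DMSO libraries and 23.2 ± 1.82 in Azeliragon libraries (SD, n = 3 each). The DMSO libraries differed more among themselves than the Azeliragon libraries did. On the first principal component of all tested genes, which held 37.6% of the variance, DMSO a lay at -0.23 and DMSO b and c lay at 30.1 and 33.7. All Azeliragon libraries were between -23.0 and -19.0.

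S100 transcripts were lower with Azeliragon, most of all those of S100A2 and S100A4. Of the 10 genes, 7 fell, none rose and 3 did not pass the test (quasi-likelihood test of edgeR, p adjusted by Benjamini-Hochberg over 16081 genes, threshold 0.05). In the same test 6.27% of all genes passed, as 3.53% fell and 2.75% rose. The median log2 fold change of the 10 genes was -0.44, against -0.0040 for all tested genes. In 8 of the 10 genes every Azeliragon library lay below every DMSO library, as in 13.2% of all tested genes, and 25.3% were without overlap in either direction. The summed level of the 10 genes was 7417 ± 1097 CPM over the DMSO libraries and 5136 ± 84.1 CPM over the Azeliragon libraries (SD, n = 3 each), a ratio of 1.44. This sum is mostly S100A6, which held 61.5% to 63.9% of the reads of the 10 genes in each library. In bulk RNA a smaller number of expressing cells and less RNA per cell cannot be told apart.

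**Figure D1:**
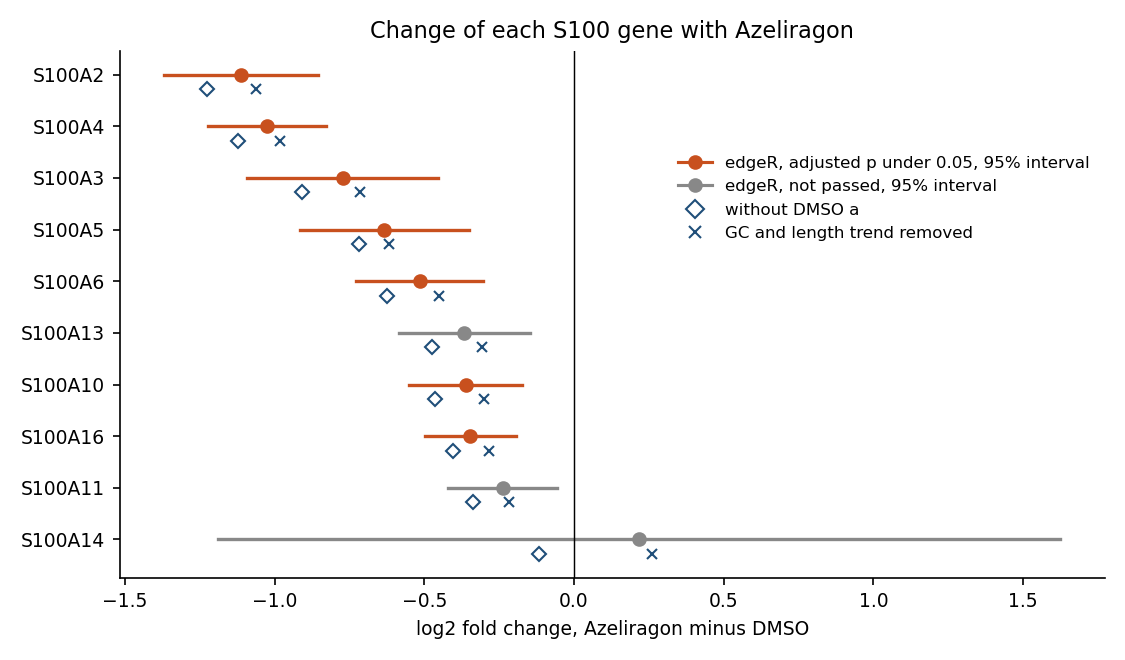
Log2 fold change of each S100 gene, Azeliragon minus DMSO, with its 95% interval from the edgeR fit, coloured by whether it passed the test. S100A2 and S100A4 lie near -1, S100A6 near -0.5, and the interval of S100A14 spans 0 widely.

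S100A4 had 789, 909 and 1055 CPM in DMSO a, b and c, and 446, 451 and 457 CPM in Azeliragon a, b and c. The lowest DMSO library was well above the highest Azeliragon library, and the 3 Azeliragon values lay close together. The means were 918 ± 133 and 451 ± 5.57 CPM (SD, n = 3 each). S100A4 fell 2.03-fold (log2 fold change -1.02, SE 0.09, 95% interval -1.22 to -0.83; edgeR adjusted p = 4.38e-05). This gene lies at chr1:153543613-153550136 on the minus strand of GRCh38. Its call held under every other setting tried, with log2 fold changes between -1.12 and -0.91 when single libraries were left out.

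S100A2 encodes a member known for being often lost in breast tumours. It stood at 128, 146 and 186 CPM in DMSO a, b and c, and at 76.9, 65.3 and 70.3 CPM in Azeliragon a, b and c. The groups did not overlap, and the means were 153 ± 29.6 and 70.8 ± 5.85 CPM (SD, n = 3 each). S100A2 fell 2.16-fold (log2 fold change -1.11, SE 0.12, 95% interval -1.37 to -0.85; edgeR adjusted p = 0.000165). Its call, too, held under every other setting, with log2 fold changes from -1.23 to -0.95 when single libraries were left out. The gene occupies chr1:153561108-153567890, also on the minus strand.

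The windows around the start sites of S100A4, S100A2, S100A6 and S100A11 are shown because these genes lie on the same strand of chromosome 1 and differed in the size of their change. They run from 250 bases before to 50 bases after the RefSeq start on GRCh38.p14, and RefSeq held 15 such windows for the 10 genes. S100A4 and S100A2 fell most, S100A6 is the most abundant of the 10 and fell less, and S100A11 is the most abundant that did not pass the test. All 5 windows are printed 5′ to 3′ on the minus strand, from chr1:153545757-153546056 for S100A4, chr1:153565795-153566094 and chr1:153563838-153564137 for the first and second starts of S100A2, chr1:153535942-153536241 for S100A6 and chr1:152036955-152037254 for S100A11. Capitals mark every match to the motifs searched, on either strand.
S100A4: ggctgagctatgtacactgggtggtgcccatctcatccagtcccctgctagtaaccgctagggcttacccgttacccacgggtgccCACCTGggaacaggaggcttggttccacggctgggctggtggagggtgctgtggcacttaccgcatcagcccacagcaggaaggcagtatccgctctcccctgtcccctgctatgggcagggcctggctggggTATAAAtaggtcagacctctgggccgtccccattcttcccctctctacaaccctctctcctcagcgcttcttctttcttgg
S100A2, first start: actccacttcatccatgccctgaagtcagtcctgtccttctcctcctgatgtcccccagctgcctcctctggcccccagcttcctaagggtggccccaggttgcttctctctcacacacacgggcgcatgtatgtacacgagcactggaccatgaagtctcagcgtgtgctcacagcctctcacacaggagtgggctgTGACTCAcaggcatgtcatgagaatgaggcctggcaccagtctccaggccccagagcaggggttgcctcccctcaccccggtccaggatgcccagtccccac
S100A2, second start: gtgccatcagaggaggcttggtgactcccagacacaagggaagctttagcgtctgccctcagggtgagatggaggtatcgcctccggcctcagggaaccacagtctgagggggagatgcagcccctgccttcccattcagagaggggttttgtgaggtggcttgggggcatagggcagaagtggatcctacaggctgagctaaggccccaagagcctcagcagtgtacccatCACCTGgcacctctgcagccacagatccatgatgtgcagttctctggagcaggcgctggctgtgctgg
S100A6: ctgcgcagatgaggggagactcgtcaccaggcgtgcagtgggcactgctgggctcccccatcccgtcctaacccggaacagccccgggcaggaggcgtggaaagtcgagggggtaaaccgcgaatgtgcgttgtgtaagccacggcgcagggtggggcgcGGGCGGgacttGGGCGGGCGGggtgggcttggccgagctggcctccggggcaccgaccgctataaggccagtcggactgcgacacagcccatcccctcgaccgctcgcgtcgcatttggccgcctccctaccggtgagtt
S100A11: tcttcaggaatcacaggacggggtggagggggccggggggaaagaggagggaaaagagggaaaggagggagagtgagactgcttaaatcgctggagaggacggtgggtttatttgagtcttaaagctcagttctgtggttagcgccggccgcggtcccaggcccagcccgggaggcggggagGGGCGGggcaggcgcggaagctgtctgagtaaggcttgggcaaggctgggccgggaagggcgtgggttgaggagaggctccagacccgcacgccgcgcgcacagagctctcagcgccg

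The search used the TATA box TATAAA, the AP-1 site TGANTCA, the E-box CAGGTG to which SNAIL binds, the GC box GGGCGG, the TEAD site GGAATG and the NF-kB consensus. The S100A4 window held a TATA box at bases -31 to -26 from the start and, on the opposite strand, the E-box at -164 to -159. In S100A2 the first window held an AP-1 site at -52 to -46 and the second held the E-box on the opposite strand at -18 to -13. The S100A6 window had GC boxes beginning at -90, -79 and -75, the latter pair overlapping, and S100A11 had a GC box at -68 to -63. Over the 15 windows, the TATA box was in 2, the AP-1 site in 3, the E-box in 6, the GC box in 6, the TEAD site in 3 and the NF-kB consensus in 1. Besides S100A4 and S100A2, the E-box was in S100A5 and S100A16, which fell less, and in S100A14, which did not pass. No E-box was in the windows of S100A3, S100A6 and S100A10, which fell, or of S100A11 and S100A13, which did not pass. A relation between motifs and the size of the change was not tested. In all 35116 RefSeq windows of this length the shares were 11.5% for the TATA box, 7.71% for the AP-1 site, 20.6% for the E-box, 44.95% for the GC box, 14.03% for the TEAD site and 11.3% for the NF-kB consensus. A match describes the letters only and is not evidence of a bound factor.

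S100A6, or calcyclin, a reported RAGE ligand that also binds the ubiquitin-ligase component CACYBP, had the highest level of the 10. It stood at 3896, 4547 and 5402 CPM in DMSO a, b and c, and at 3333, 3118 and 3232 CPM in Azeliragon a, b and c. The groups did not overlap, although DMSO a was nearer to the Azeliragon libraries than to DMSO c. Means were 4615 ± 755 and 3228 ± 108 CPM (SD, n = 3 each), and S100A6 fell 1.43-fold (log2 fold change -0.52, SE 0.10; edgeR adjusted p = 0.00745). Without any single Azeliragon library the call was lost, narrowly, with an adjusted p of up to 0.0532 in the same test. An antisense transcript, BX470102.1, shares 23 exon bases with S100A6 and stood at 5.83 CPM on average, far below S100A6.

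S100A3 and S100A5 were low. S100A3 encodes a cysteine-rich member known from the hair cuticle, and it had 12.8, 15.3 and 19.6 CPM in DMSO and 9.05, 10.3 and 8.56 CPM with Azeliragon, in the order a, b, c. S100A3 fell 1.71-fold without overlap of the groups (log2 fold change -0.77, SE 0.15; edgeR adjusted p = 0.00759). S100A5, a member known from olfactory neurons, had 7.15, 7.92 and 9.34 CPM in DMSO and 5.12, 5.48 and 5.14 CPM with Azeliragon. The groups again did not overlap, and S100A5 fell 1.55-fold (log2 fold change -0.63, SE 0.13; edgeR adjusted p = 0.0119). Both calls were lost without Azeliragon a or Azeliragon c, with adjusted p up to 0.0623 for S100A3 and 0.0759 for S100A5. The span of S100A3 lies inside that of S100A4 on the same strand, but the annotated exons of the genes share 0 bases.

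S100A10, also called p11, cannot bind calcium and pairs with annexin A2 at the plasma membrane. It stood at 417, 519 and 530 CPM in DMSO and at 364, 397 and 381 CPM with Azeliragon. S100A10 fell 1.28-fold, and the groups did not overlap (log2 fold change -0.36, SE 0.09; edgeR adjusted p = 0.0282). This call held when DMSO a was left out and was lost without any other single library, with an adjusted p of up to 0.173. S100A16, a widely expressed member, had 568, 620 and 667 CPM in DMSO and 467, 492 and 499.7 CPM with Azeliragon. All its Azeliragon values were below all its DMSO values, and it fell 1.27-fold (log2 fold change -0.35, SE 0.07; edgeR adjusted p = 0.0106). Its call was lost when DMSO b or an Azeliragon library was left out, with an adjusted p of up to 0.0989.

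Of the 3 genes that did not pass, S100A13 was nearest to the threshold. S100A13, which takes part in the unconventional export of FGF1 and interleukin 1 alpha, had 50.04, 59.1 and 68.4 CPM in DMSO and 47.6, 44.8 and 45.4 CPM with Azeliragon. The groups did not overlap, by a narrow margin between DMSO a and Azeliragon a (log2 fold change -0.37, SE 0.10, 95% interval -0.59 to -0.15, and adjusted p = 0.0535 in edgeR). Its exons overlap those of S100A1 on the other strand by 235 bases, 10.6% of its length. They overlap those of AL162258.1, on the same strand, by 536 bases, 24.2%. The strand setting of the counting is not given in the sources used here, so the counts of S100A13 and S100A1 are uncertain over the bases they share. No strand setting separates S100A13 from AL162258.1, which had 75 reads over all libraries.

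S100A11, a RAGE ligand also known to bind annexin A1, stood at 464, 571 and 589 CPM in DMSO and at 466, 465 and 445 CPM with Azeliragon. DMSO a lay among the Azeliragon libraries, so the groups overlapped (log2 fold change -0.24, SE 0.08, 95% interval -0.42 to -0.06, and adjusted p = 0.128 in edgeR). Without DMSO a, S100A11 had a log2 fold change of -0.34 and passed the same test. S100A14, an epithelial member, had 5, 10 and 15 reads in DMSO and 14, 3 and 17 reads with Azeliragon, too few to place it. Of its 64 reads, 53.1% came from Azeliragon libraries (exact binomial 95% interval 40.2 to 65.7%, for counting error only), where 49.3% would fall with no change. Its log2 fold change was 0.22 with an SE of 0.64 (edgeR adjusted p = 0.892).

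The count of genes that fell varied with the tool and, more widely, with the libraries used. It was 7 with RLE size factors, beside 3.48% of all genes, 8 with library totals (3.42%), 9 with no filter on low counts (2.70%) and 7 with a stricter filter (4.58%). DESeq2 gave 8, beside 4.31% of all genes, limma-voom 7 (3.45%) and edgeR with the letter as a replicate block 7 (3.06%). Without DMSO a, 9 of the 10 passed, but 10.8% of all genes tested then fell too. Without DMSO b or DMSO c, 5 and 6 passed, beside 1.93% and 2.82% of all genes. When Azeliragon a, b or c was left out, 2, 4 and 2 passed, beside 1.63%, 1.88% and 1.74% of all genes. S100A2 and S100A4 were among those that passed in each case. Against a fold change of 1.5 with glmTreat, S100A2 and S100A4 passed and the other 8 did not, and 0.305% of all genes were called lower.

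Among the DMSO libraries all 10 genes were lowest in DMSO a and highest in DMSO c, an order that 24.4% of all tested genes had. Across DMSO the coefficient of variation was 8.02% to 21.7% in the 9 genes other than S100A14, and across Azeliragon it was 1.24% to 9.49%. The spread was larger in DMSO for 9 of the 10 genes, and smaller with Azeliragon for 68.0% of all tested genes. The 10 genes together took 0.647, 0.741 and 0.830% of the reads of DMSO a, b and c, and 0.523, 0.503 and 0.515% of those of Azeliragon a, b and c. Even the lowest DMSO library therefore gave the 10 genes together a larger share than any Azeliragon library did. Most of these reads were of S100A6 in every library.

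**Figure D2:**
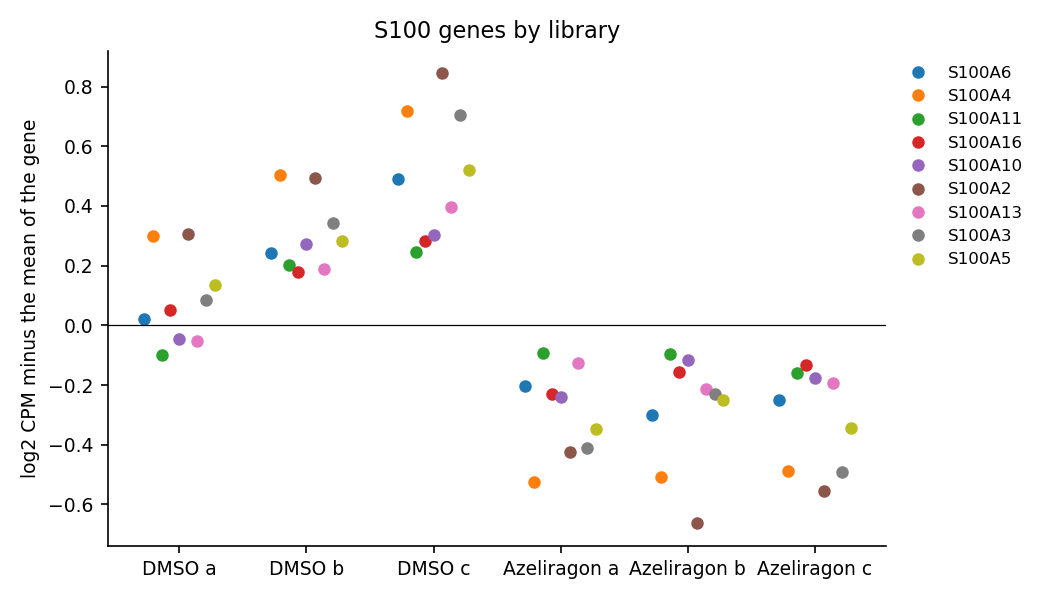
Log2 CPM of each S100 gene in each library minus the mean of that gene over the 6 libraries, with 1 point per gene and S100A14 left out for its low counts. In each gene shown DMSO a is the lowest and DMSO c the highest DMSO point, and the Azeliragon points lie together, below DMSO b and c.

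These are short genes. Their exons cover 680 to 2216 bases, where the median tested gene has 4381. Genes of up to 1000 bases, the class of S100A3, S100A5, S100A6 and S100A11, had a median log2 fold change of -0.02 over 1352 genes, with median deviations of 0.02 in DMSO a and 0.06 in DMSO c, and 0.962% of them fell. Genes of 1001 to 2216 bases had a median log2 fold change of -0.05 over 2067 genes, with median deviations of -0.07 in DMSO a and 0.13 in DMSO c, and 3.63% of them fell. Of all 3419 tested genes no longer than the longest of the 10, 2.57% fell. These length classes were not matched for level, and by mean CPM S100A6 and S100A11 ranked 11 and 284 among tested genes. With the trends of each library on length and GC removed, 8 of the 10 genes passed, beside 4.22% of all genes. In that fit the log2 fold change was -1.06 for S100A2, -0.98 for S100A4 and -0.45 for S100A6. S100A13 joined the genes that passed, at -0.31 (edgeR adjusted p = 0.0465).

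Levels of different genes were compared per kilobase of exon. In DMSO the order was S100A6 at 4753 CPM per kb, S100A4 at 895 ± 130, S100A11 at 796 ± 99.8, S100A16 at 363 and S100A10 at 317. Below them came S100A2 at 97.6, S100A13 at 26.7, S100A3 at 16.6, S100A5 at 10.4 and S100A14 at 0.18 CPM per kb. The libraries of S100A4 and S100A11 overlapped in that order, as did those of S100A16 and S100A10. S100A6 was the fifth most abundant of 16001 genes with a known length by the mean over all 6 libraries, and S100A11, S100A4, S100A16 and S100A10 ranked 43, 51, 99 and 119.

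**Figure D3:**
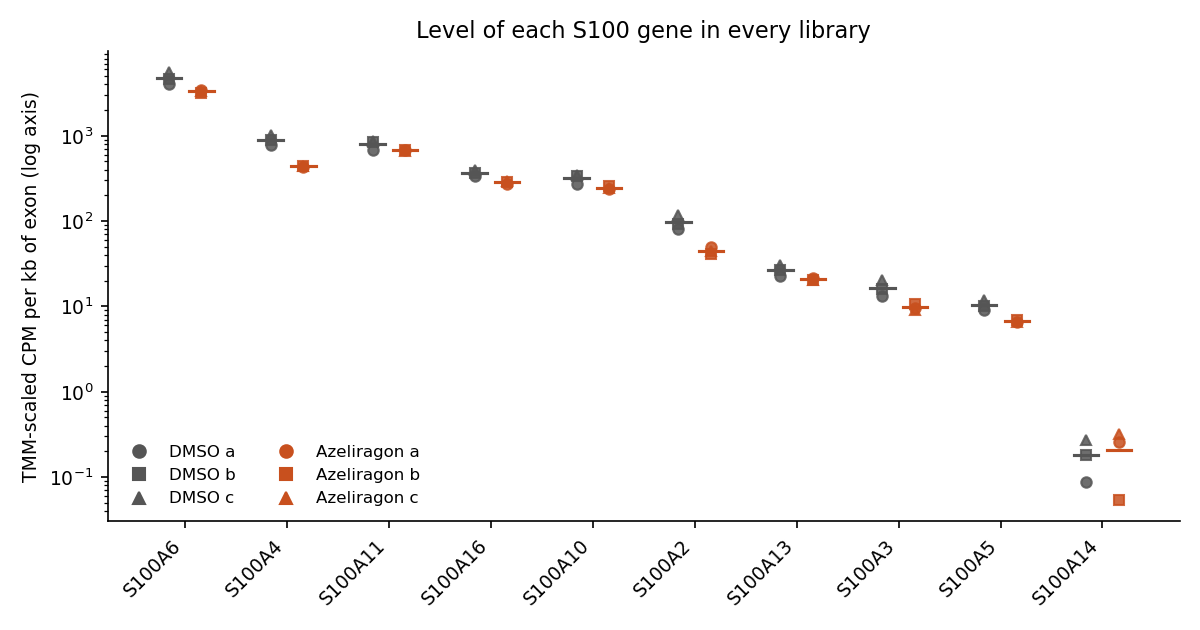
TMM-scaled CPM per kb of exon for each S100 gene on a log axis, with 1 point per library and the conditions in different colours. S100A6 is highest, with means of 4753 and 3324 CPM per kb, S100A14 is lowest, and the S100A4 points of Azeliragon lie below those of S100A11.

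With Azeliragon the places of S100A4 and S100A11 were exchanged. S100A11 stood at 675 ± 17.5 CPM per kb and S100A4 at 440.0 ± 5.44 (SD, n = 3 each), and the libraries of neighbouring genes no longer overlapped. This order depends on the length used. With the principal transcript in place of all exons, S100A4 stood at 1529 and S100A11 at 911 CPM per kb in DMSO, and with Azeliragon S100A4 ran from 743 to 761 and S100A11 from 749 to 785, so that they overlapped.

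Ratios between members within a library are free of library scaling. The reads of S100A4 per read of S100A11 were 1.70, 1.59 and 1.79 in DMSO a, b and c, and 0.955, 0.969 and 1.03 in Azeliragon a, b and c. The difference was -0.78 on the log2 scale, with every Azeliragon library below every DMSO library. An exact two-sided permutation test gave p = 0.10, the smallest that 3 libraries against 3 allow, so no ratio could pass (adjusted p = 0.15 over 6 ratios). S100A4 to S100A6 went from 0.202, 0.200 and 0.195 to 0.134, 0.145 and 0.141, again without overlap (-0.51 on the log2 scale, exact permutation p = 0.10). The ratio of S100A2 to S100A4 overlapped between conditions, at 0.162, 0.1602 and 0.176 in DMSO and 0.173, 0.145 and 0.154 with Azeliragon (-0.08 on the log2 scale, exact permutation p = 0.40). The DMSO libraries, which were spread widely in the level of S100A4, were close together in these ratios.

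**Figure D4:**
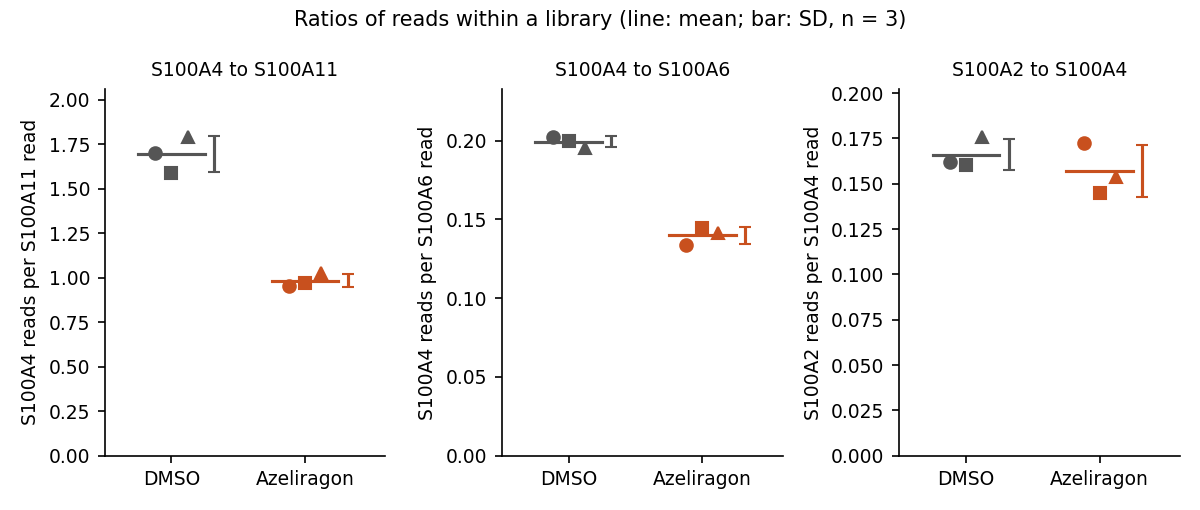
Reads of one S100 gene per read of another in each library, with the mean as a line and the SD as a bar (n = 3 per condition). The conditions stand apart for S100A4 to S100A11 and for S100A4 to S100A6, and overlap for S100A2 to S100A4.

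S100A4 accounted for 12.3 ± 0.10% of the summed level per length of the 10 genes in DMSO and for 8.71 ± 0.23% with Azeliragon (SD, n = 3 each; exact permutation p = 0.10, adjusted p = 0.25 over 10 shares). The share of S100A11 was 10.98% in DMSO and 13.4% with Azeliragon, that of S100A2 was 1.34% and 0.893%, and that of S100A6 was 65.2% and 65.8%. The coefficient of variation of the S100A4 share over the DMSO libraries was 0.819%, against 14.5% for its level. Across the Azeliragon libraries the share varied by 2.68% and the level by 1.24%.

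All 10 genes lie on the minus strand of chromosome 1. The 5 genes from S100A6 to S100A2 span 33.3 kb, chr1:153534599-153567890, and all 5 fell. Of the block S100A16, S100A14 and S100A13, chr1:153606886-153631360, 1 of 3 fell, and of the pair S100A10 and S100A11, which lies 1487 kb away from the main cluster, 1 of 2 fell. In the same test 3.53% of all tested genes fell. S100A13, not counted, had a log2 fold change of -0.37 (edgeR adjusted p = 0.0535), beside -0.35 for S100A16, which was counted. S100A14, with 64 reads, had too few to place it. Ordered by lowest annotated base, the first block had log2 fold changes of -0.52 for S100A6, -0.63 for S100A5 and -1.02 for S100A4. Next came -0.77 for S100A3 and -1.11 for S100A2. The RefSeq starts give the same order, but by the outermost annotated start S100A3 comes before S100A4. Between that block and S100A16, the non-coding BX470102.2 had a log2 fold change of -0.20, and beyond S100A13 CHTOP had -0.05, and neither passed the test. Among 18 tested genes listed as neighbours of the cluster in 1q21, 0 fell and 0 rose in edgeR, DESeq2 and limma-voom. An unadjusted edgeR p under 0.05 was found for 3 of the 18, as for at least 3183 of all 16081 tested genes. The median log2 fold change of these neighbours was -0.01. ILF2, the most abundant of them, had 341 CPM in DMSO and 352 with Azeliragon. Without DMSO a, 3 of these neighbours were called lower and 2 higher, in a fit that called 10.8% of all tested genes lower. The share of all genes called higher in that fit was not counted.

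**Figure D5:**
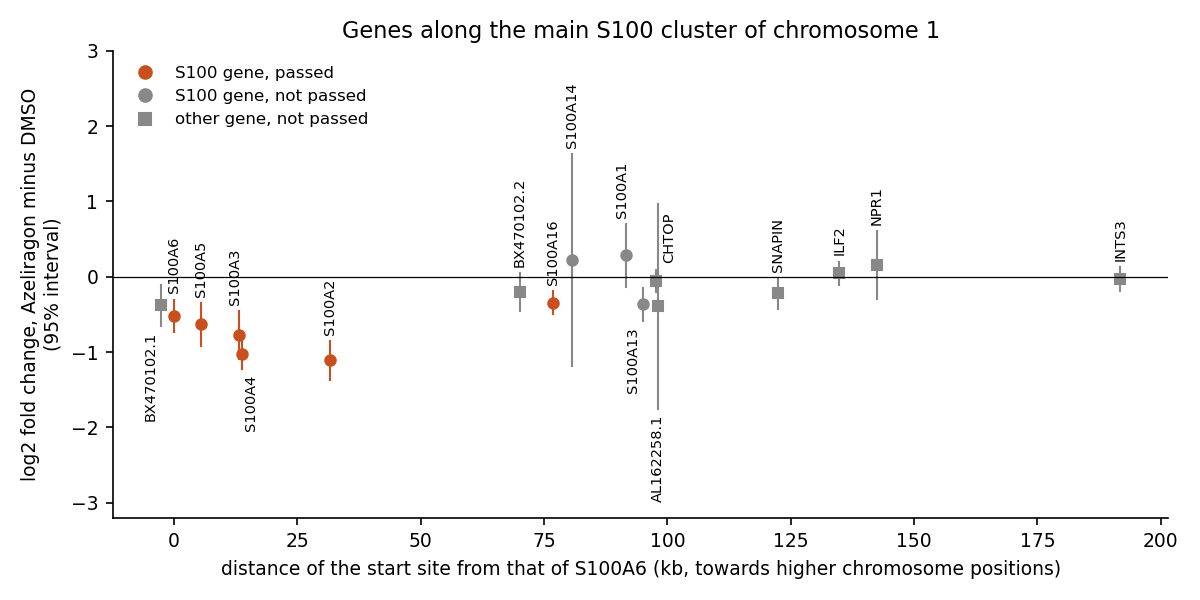
Log2 fold change with its 95% interval for tested genes along the main S100 cluster, against the distance of each start site from that of S100A6 in kb. Start sites are the outermost annotated ones, and by its RefSeq start S100A4 would lie between S100A5 and S100A3. The S100 genes on the left, from S100A6 to S100A2, lie below 0, and the genes to the right of them have values nearer to 0.

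The genes nearest in pattern over the 6 libraries were found by the distance between log2 CPM values centred on each gene's mean, among 9920 candidate genes. For S100A6, the most abundant member per length, they were BST2 at a distance of 0.0596, DDAH2 at 0.0933 and POLD4 at 0.116, with log2 fold changes of -0.51, -0.57 and -0.53. For S100A4, which had the smallest p, they were IGFBP4 at 0.154, GBP2 at 0.163 and HLA-DRA at 0.179, with log2 fold changes of -0.93, -1.04 and -1.09. S100A2 lay at 0.232 from S100A4, nearer than any other S100 gene did. The S100 gene nearest to S100A6 was S100A13, at 0.186.

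The other S100 genes were low or without reads. Of 11, 5 had any read and 2 had enough to be tested. S100A1, the cardiac and muscle member, had 1.78 CPM in DMSO and 2.17 with Azeliragon (log2 fold change 0.29, edgeR adjusted p = 0.443), and S100Z had 52 reads in DMSO and 60 with Azeliragon (log2 fold change 0.23). Neither had an unadjusted p under 0.05. Over all libraries S100P, a RAGE ligand of carcinomas, had 12 reads, S100B, the glial member, had 4 and S100A9, a subunit of calprotectin, had 1. Each of the other 6 had 0 reads, which allows up to 3 counts per library, or 0.0665 to 0.0723 CPM.

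Myeloid cells, keratinocytes and melanocytes are rich in S100 proteins, and their markers were read beside these results. MPO had 0 reads, ITGAM 1 and PTPRC 3 over all 6 libraries, while CSF1R fell from 3.83 to 1.47 CPM (edgeR adjusted p = 0.00185). CD14 had 1.36 CPM in DMSO and 0.903 with Azeliragon and did not pass (edgeR adjusted p = 0.247). Reads were found for 5 of the 6 myeloid markers, and their sum was 4.91 to 5.91 CPM in DMSO and 2.26 to 2.72 with Azeliragon. KRT1, KRT5 and IVL had 0 reads, and the 6 keratinocyte markers, of which 3 had reads, summed to 46.9 to 71.7 CPM in DMSO and 56.7 to 67.8 with Azeliragon, nearly all from KRT10. TP63 had 1.07 CPM in DMSO and 0.772 with Azeliragon and did not pass (edgeR adjusted p = 0.388). The 5 melanocyte markers, all with some reads, summed to 0.908 to 1.44 CPM in DMSO and 1.49 to 1.67 with Azeliragon. The part of such cells in the S100 values was not tested.

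The receptor gene AGER was low, at 6.11, 7.48 and 6.63 CPM in DMSO and 5.98, 6.28 and 6.20 CPM with Azeliragon, and did not pass the test (edgeR adjusted p = 0.594). Of 9 tested genes for RAGE, its other ligands and its adaptors, 0 fell and 0 rose in edgeR, DESeq2 and limma-voom. An unadjusted edgeR p under 0.05 was found for 3 of the 9, as for at least 3183 of all 16081 tested genes. The median log2 fold change of these 9 genes was -0.10. RAC1, a GTPase downstream of the receptor and the most abundant of them, had 397 and 407 CPM. Log2 fold changes in the list ran from -1.16 to 0.18. The lowest was that of CDC42, which had 13 to 41 reads in each library and did not pass (edgeR adjusted p = 0.0783). Leaving out DMSO a gave 2 lower and 2 higher calls in this list, in a fit that called 10.8% of all tested genes lower. The share of all genes called higher in it was not counted.

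Among 5 tested genes for other S100 receptors, 3 had an unadjusted edgeR p under 0.05, of which 1 was lower and 2 higher. At least 3183 of all 16081 tested genes had such a p. After adjustment 1 of the 5 receptor genes rose and 0 fell, with a median log2 fold change of 0.04. The gene that rose was MCAM, a cell adhesion molecule reported to bind S100A8 and S100A9. MCAM had 85.3, 79.2 and 75.8 CPM in DMSO and 99.5, 108 and 104 CPM with Azeliragon (log2 fold change 0.38, SE 0.07; edgeR adjusted p = 0.00631). The call was lost when either library b was left out. Without DMSO a the list had 1 lower and 2 higher calls, in a fit that called 10.8% of all tested genes lower. How many of all genes it called higher was not counted.

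Partners that S100 proteins bind inside the cell were read beside them. ANXA2, the partner of S100A10, stood at 2031 ± 189 CPM in DMSO libraries and 2129 ± 45.4 CPM in Azeliragon libraries, and MYH9, the myosin chain bound by S100A4, at 2834 ± 160 and 2792 ± 98.5 CPM (SD, n = 3 each). Neither passed the test.

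Of 27 tested EF-hand genes outside the S100 family, 2 fell and 1 rose, with a median log2 fold change of -0.06. An unadjusted edgeR p under 0.05 was found for 12 of the 27, of which 9 were lower and 3 higher. At least 3183 of all 16081 tested genes also had an unadjusted p under 0.05. NUCB1, a calcium-binding protein of the Golgi, fell from 179 to 138 CPM (log2 fold change -0.38; edgeR adjusted p = 0.0045), and MYL9, a myosin light chain, fell from 219 to 167 CPM (-0.39; adjusted p = 0.0113 in the same test). ACTN1, an actin crosslinker, rose from 962 to 1191 CPM (0.31; adjusted p = 0.00577 in the same test). Without DMSO a the list had 12 lower and 5 higher calls, in a fit that called 10.8% of all tested genes lower.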

How the data were processed

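Per the labels' protocols, the libraries were made from polyadenylated RNA of MDA-MB-231 cells. The authors deposited raw counts per gene, with a column for each of the 6 libraries. STAR 2.6.1d, featureCounts 1.5.0-p3, limma and GRCh38 are named without their roles, per the submitters' processing notes, and for the strand setting and reads with several matches the settings were not given in the sources used here. Of 58735 entries, 2 named by a number held 0 reads and were left out, 1741 shared a name with another and 58722 matched GENCODE 29, used for position, length and GC.

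Counts were filtered with filterByExpr, scaled by TMM and compared with glmQLFit and glmQLFTest of edgeR 4.0.16, with treatment as the only term and Benjamini-Hochberg adjustment over 16081 genes (threshold 0.05). The procedure was tested on simulated counts. Fold changes and standard errors are those of the fit, and groups came from the labels. No library was a copy of another of its condition (chi-square of 4.60 or more per degree of freedom). Shares were compared by exact permutation in R and ratios by exact permutation in Python, and binomial intervals came from scipy 1.17.1. Other settings were library totals, RLE size factors, no filter, a stricter filter (mean count of 50 or more, and 1 CPM in 3 libraries), limma-voom 3.58.1, DESeq2 1.42.0, a replicate block, single libraries left out, removal of GC and length trends (splines with 4 degrees of freedom) with and without DMSO a, and glmTreat. R 4.3.3, Python 3.11.15 and matplotlib 3.10.9 were used.

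The members and gene lists were chosen with earlier results of these data known. Named were all 10 members, the other S100 genes with reads, up to 4 called genes of each list or otherwise its most abundant gene, and the 3 genes nearest in pattern to the most abundant member per length and to the member with the smallest p. AGER, CDC42, ANXA2, MYH9, HRNR, FLG2, TCHH, BX470102.1, BX470102.2, AL162258.1, CHTOP and the single cell type markers were named beside the rule. Intervals on reads cover counting error only. Part of the list of intracellular partners is not reported here.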

Additional observations from a re-analysis of the deposited data

How the results depend on the processing

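S100A2 and S100A4 kept their direction and their call under all 16 alternatives. With 64 reads over 6 libraries, depth limited what could be seen for S100A14. Against 1.5-fold with glmTreat the calls of S100A3, S100A5, S100A6, S100A10 and S100A16, at log2 fold changes of -0.77, -0.63, -0.52, -0.36 and -0.35, were lost (adjusted p = 1), which left 2 members, and that test asks for a larger change by construction. S100A11 passed without a filter at -0.23, without DMSO a at -0.34 and, with the GC and length trend removed and DMSO a left out, at -0.32. S100A13 passed with library totals at -0.36, without a filter at -0.36, in DESeq2 at -0.36, with the trend removed at -0.31, without DMSO a at -0.47 and with both at -0.40. S100A14 turned to -0.065 with the trend removed and DMSO a left out, to -0.12 without DMSO a and to -0.22 without Azeliragon c. The cause was not tested. When single libraries were left out, the log2 fold change ran from -0.91 to -0.59 for S100A3, -0.72 to -0.52 for S100A5, -0.62 to -0.39 for S100A6, -0.46 to -0.30 for S100A10, -0.34 to -0.17 for S100A11, -0.47 to -0.25 for S100A13, -0.22 to 0.67 for S100A14 and -0.40 to -0.29 for S100A16. The number of members that fell ran from 2 to 9. The difference in the share of S100A4 was -3.60 percentage points and ran from -3.68 to -3.47 when single libraries were left out. It was -4.14 per length of the principal transcript, an alternative chosen after seeing the data.

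With the letter as a replicate block, 7 members fell, as without it. Libraries with the same letter did not deviate together (correlations of 0.03, 0.02 and -0.04), not every library correlated best with its own letter, and the letters are not described as pairing the libraries.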

Other observations

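The fused S100-type genes of the epidermis, large proteins that begin with an S100 domain and lie between the blocks of S100 genes in 1q21, had a median change above 0. Of 7, 5 had reads and 4 were tested, and their median log2 fold change was 0.49, with values from 0.38 to 0.84. Of these 4, FLG2 and TCHH had 22 reads or fewer in each library. In edgeR 0 of the 4 passed the threshold. An unadjusted p under 0.05 was found for 1 of them, as for at least 3183 of all 16081 tested genes. Without DMSO a 2 of the 4 were called higher, and the share of all genes called higher in that fit was not counted. FLG, which encodes filaggrin and was the most abundant, had 29.3, 13.3 and 13.4 CPM in DMSO a, b and c and 24.7, 23.1 and 25.8 CPM in Azeliragon a, b and c. DMSO a lay above all 3 Azeliragon libraries and the other DMSO libraries below them, so its log2 fold change of 0.39 did not pass (edgeR adjusted p = 0.398). HRNR and FLG2 were also highest in DMSO a among the DMSO libraries, while TCHH was lowest there, at 6 reads. In the 10 S100 genes of the report, by contrast with FLG, DMSO a was the lowest of the DMSO libraries. The exons of the 4 tested fused genes cover 6995 to 12747 bases, against 680 to 2216 in the 10 genes. Over the 2899 genes of more than 8000 bases, the median deviation was 0.09 in DMSO a and -0.13 in DMSO c. The median log2 fold change of those long genes was 0.06. The part of length in this contrast was not tested.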
